A study of Mus musculus with 9 samples.

Results

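A set of 40 genes of DNA replication and cell division was followed through the lungs of tumour-bearing mice that had received an antibody against PD1, nanocapsules of that antibody, or neither. The set holds 14 genes of S phase and 26 genes of mitosis, chosen by symbol from a gene-level table of 45706 rows, and each symbol had exactly 1 row. Of the 40, 39 reached 1 TPM in at least 3 of the 9 lungs and were tested. Cenpf reached it in only 2 lungs and is given by value. TPM is a share of all transcripts in a library, corrected for transcript length, so that levels of different genes can be compared.

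The mice were female BALB/c animals of 4 to 6 weeks. All of them, controls included, bore 4T1 tumour cells, from a mammary carcinoma of the mouse, placed in the right flank. Treatment fell on days 7 and 14 and the lungs were taken on day 21. One group received phosphate-buffered saline (PBS), one the free antibody against the T cell checkpoint receptor PD1 (called anti-PD1 below), and one that antibody in nanocapsules. The labels name 150 µg per mouse, and their wording does not settle if the free antibody was given at it too. There were 3 lungs per group, numbered 1 to 3 by the labels, which do not tie them to named animals. The p-values therefore set differences of group means against the scatter among these samples, which is not known to be that between mice. No lung of a tumour-free mouse was among the 9 samples. Values of a group are given in the order of its lungs 1, 2 and 3.

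Cells that divide copy their DNA in S phase and separate the copies in mitosis. In S phase the Mcm2 to Mcm7 proteins form the ring of the helicase that unwinds DNA, Cdc6 loads it on origins, and Cdc45 and the GINS complex switch it on. In mitosis, cyclin B and Cdk1 drive entry, Aurora and Polo-like kinases and kinesin motors build the spindle, and the anaphase promoting complex with Cdc20 ends it. Transcription of S phase genes is mostly driven by E2F factors, and that of mitosis genes by the MuvB complex with B-Myb and FoxM1, which acts through a short promoter element called CHR. In whole lung RNA, fewer dividing cells and less RNA per dividing cell cannot be told apart.

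The promoters of the S phase and mitosis genes held different sequence elements, which is why a few are printed here. RefSeq promoters of the assembly GRCm38.p6, from 250 bases before to 50 bases after a start, were found for 32 of the 40 genes, as 35 windows of 300 bases. Both strands were searched for the CHR element (TTTGAA or TTTAAA), for CCAAT, the site of NF-Y, and for E2F sites (TTTNGCGC, TTTCCCGC, TTCCCGCC or TTGGCGCC). The E2F forms can overlap each other, and TTGGCGCC can also overlap a CCAAT on the other strand, so windows with at least 1 match were counted. An E2F match was present in 8 of 14 S phase windows (57.1%) and 2 of 21 mitosis windows (9.52%), against 4.57% of all 32851 promoter windows. A CHR match was present in 5 of 14 S phase windows (35.7%) and 18 of 21 mitosis windows (85.7%), against 27.6% of all windows. CCAAT occurred in 85.7% of the windows of both kinds, against 37.4% of all windows. A match is a string of letters and does not show that a factor binds there.

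In the windows printed here, capitals mark the matches. Mcm3 and Mcm6, from the helicase, hold E2F and CCAAT matches, and Mki67 and Top2a, from mitosis, hold CHR and CCAAT matches. Not all helicase windows are like the printed ones: that of Mcm2 holds CHR and CCAAT but no E2F match, and that of Mcm5 holds CHR beside E2F and CCAAT. Hmgb2, which differed from the other mitosis genes in its levels, also holds CHR and CCAAT matches. The windows lie at chr1:20820263-20820562 (minus strand), chr1:128359656-128359955 (minus strand), chr7:135716330-135716629 (minus strand), chr11:99024140-99024439 (minus strand) and chr8:57511593-57511892 (plus strand).
Mcm3: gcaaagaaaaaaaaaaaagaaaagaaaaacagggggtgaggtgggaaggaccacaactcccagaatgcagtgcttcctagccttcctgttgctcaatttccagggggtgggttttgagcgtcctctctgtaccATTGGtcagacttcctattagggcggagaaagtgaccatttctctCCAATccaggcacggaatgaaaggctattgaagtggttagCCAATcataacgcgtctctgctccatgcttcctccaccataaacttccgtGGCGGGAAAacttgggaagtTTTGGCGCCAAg
Mcm6: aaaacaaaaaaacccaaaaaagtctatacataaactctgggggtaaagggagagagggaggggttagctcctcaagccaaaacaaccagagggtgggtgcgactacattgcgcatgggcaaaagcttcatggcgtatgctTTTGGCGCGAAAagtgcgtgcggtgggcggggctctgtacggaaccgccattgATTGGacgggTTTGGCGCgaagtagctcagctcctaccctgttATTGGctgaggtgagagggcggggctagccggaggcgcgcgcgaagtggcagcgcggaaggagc
Mki67: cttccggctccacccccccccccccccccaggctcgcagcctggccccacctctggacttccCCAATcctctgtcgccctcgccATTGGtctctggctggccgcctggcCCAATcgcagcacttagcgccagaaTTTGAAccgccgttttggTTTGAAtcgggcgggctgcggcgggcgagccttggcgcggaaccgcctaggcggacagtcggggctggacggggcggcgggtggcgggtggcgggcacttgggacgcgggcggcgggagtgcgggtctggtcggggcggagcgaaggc
Top2a: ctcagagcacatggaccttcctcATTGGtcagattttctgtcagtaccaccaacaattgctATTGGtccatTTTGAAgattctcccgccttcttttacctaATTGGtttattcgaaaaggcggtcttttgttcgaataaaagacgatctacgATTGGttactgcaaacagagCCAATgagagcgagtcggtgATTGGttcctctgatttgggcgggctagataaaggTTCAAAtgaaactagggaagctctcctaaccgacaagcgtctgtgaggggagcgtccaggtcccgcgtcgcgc
Hmgb2: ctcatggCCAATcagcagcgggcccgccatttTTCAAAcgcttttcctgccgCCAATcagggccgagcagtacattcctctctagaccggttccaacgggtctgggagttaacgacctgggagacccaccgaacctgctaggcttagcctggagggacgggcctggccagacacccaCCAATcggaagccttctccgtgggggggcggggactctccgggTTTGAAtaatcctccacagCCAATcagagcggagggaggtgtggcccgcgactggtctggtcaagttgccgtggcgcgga

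The PBS lungs and the anti-PD1 lungs differed among themselves in these genes by more than their group means differed, and the nanocapsule lungs lay close together. As a summary for each library, the mean log2(TPM + 1) of the tested genes of a list is called its index. The S phase index was 3.74, 3.24 and 3.74 in PBS 1, 2 and 3, 3.48, 3.23 and 4.09 in anti-PD1 1, 2 and 3, and 3.25, 3.33 and 3.44 in nanocapsule 1, 2 and 3. The mitosis index was 3.35, 2.79 and 3.34, 2.78, 2.83 and 3.63, and 3.01, 2.99 and 3.06 in the same order. Anti-PD1 3 was the highest library in both indices. PBS 1 and 3 were above the 3 nanocapsule lungs in both, PBS 2 was below all 3 of them in both, and the groups overlapped.

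**Figure D1:**
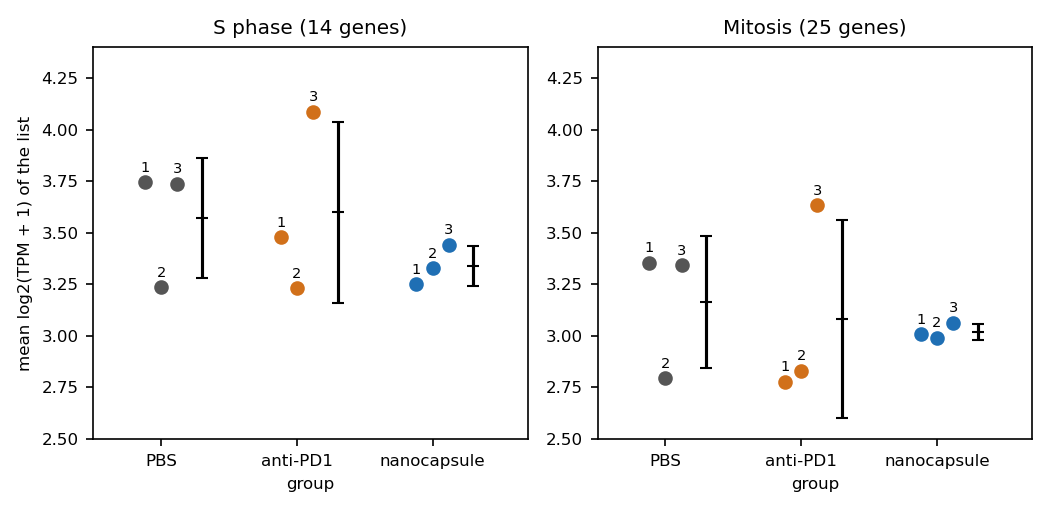
S phase index (left) and mitosis index (right), each the mean log2(TPM + 1) of the tested genes of the list, by group. Each point is 1 lung, labelled with its number, and the bar gives the group mean with the SD; anti-PD1 3 stands at 4.09 and 3.63, above the other 8 lungs.

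The spread within groups was largest in the anti-PD1 lungs. The mitosis index was 3.16 ± 0.32 with PBS, 3.08 ± 0.48 with anti-PD1 and 3.02 ± 0.04 with the nanocapsule, and the S phase index 3.57 ± 0.29, 3.60 ± 0.44 and 3.34 ± 0.10 (SD, n = 3 each). Of the 39 tested genes, 34 had their highest value of all 9 lungs in anti-PD1 3, 13 of S phase and 21 of mitosis, whereas 25.6% of all 13248 tested genes did. The exceptions were Cdc6, Hmgb2, Kif23, Ccnb2 and Cdk1. Within the PBS group, PBS 2 was lowest in 35 of the 39 genes, against 54.2% of all tested genes. Both indices moved together: S phase minus mitosis lay between 0.24 and 0.45 in 8 lungs and at 0.70 in anti-PD1 1, the library with the lowest mitosis index.

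**Figure D2:**
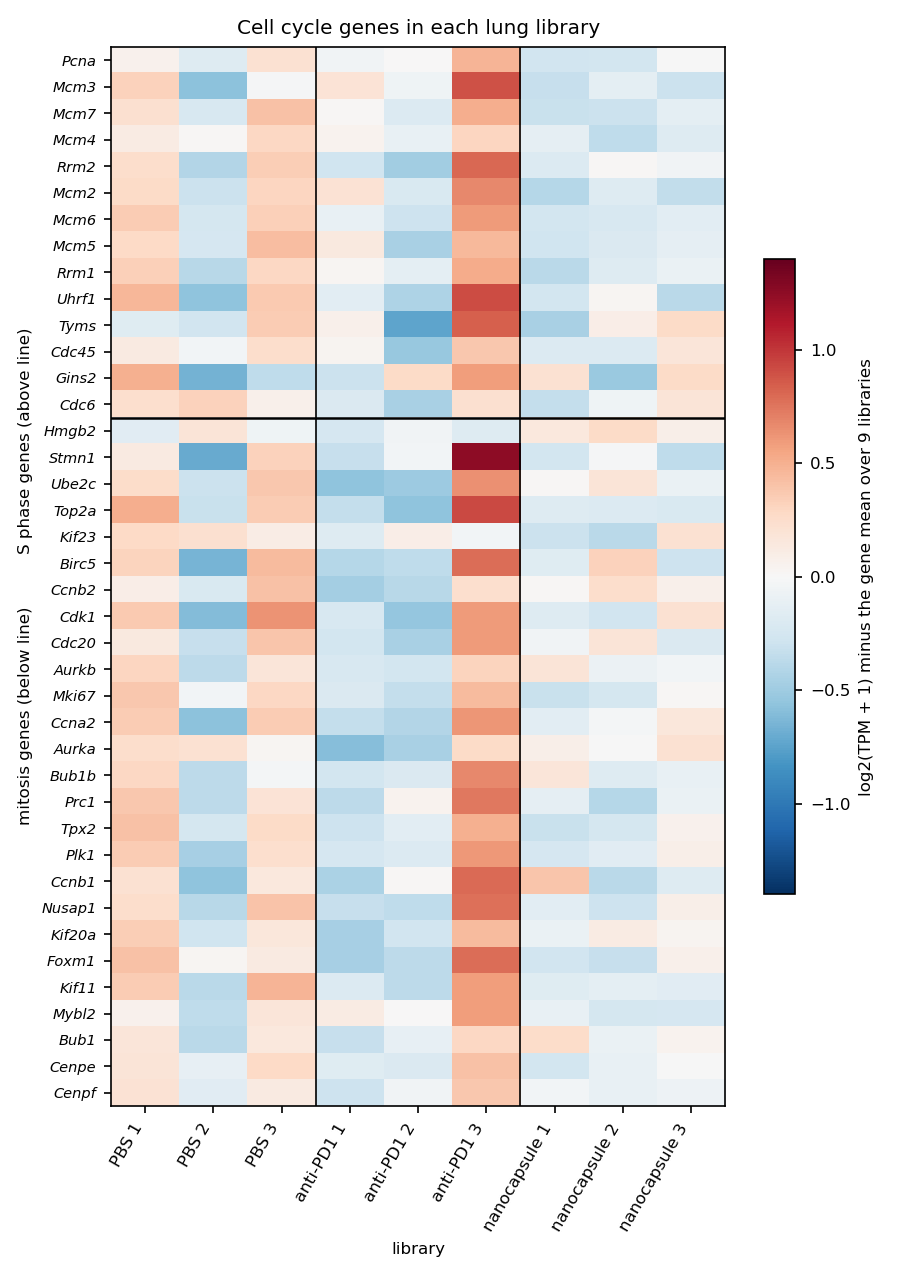
Level of each of the 40 genes (rows, S phase above and mitosis below the line, ordered by mean TPM) in each lung (columns), as log2(TPM + 1) minus the mean of that gene over the 9 lungs. Red is above and blue below the gene mean; the column of anti-PD1 3 is red and that of PBS 2 blue for most genes, and Hmgb2 and Kif23 differ from the rest.

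The 6 helicase genes of S phase were all well above the 1 TPM limit in every lung. Mcm3 was at 24.7, 12.8 and 19.3 TPM with PBS, 22.5, 18.7 and 37.1 TPM with anti-PD1 and 15.4, 17.7 and 15.6 TPM with the nanocapsule. Mcm6 was at 14.5, 9.26 and 14.3 TPM with PBS, 10.3, 8.94 and 17.4 TPM with anti-PD1 and 9.15, 9.44 and 9.96 TPM with the nanocapsule. Both were highest in anti-PD1 3, and Mcm3 was lower in each nanocapsule lung than in each anti-PD1 lung. Mcm2 was at 13.9, 8.97 and 14.1 TPM with PBS, 13.2, 9.58 and 18.6 TPM with anti-PD1 and 8.295, 9.88 and 8.69 TPM with the nanocapsule. Mcm4 was at 15.8, 14.7 and 17.9 TPM with PBS, 15, 13.5 and 18.1 TPM with anti-PD1 and 13.2, 11.2 and 12.7 TPM with the nanocapsule, with all nanocapsule lungs below all PBS and all anti-PD1 lungs. Mcm5 was at 13.1, 8.95 and 14.7 TPM with PBS, 11.8, 7.51 and 14.96 TPM with anti-PD1 and 8.63, 9.11 and 9.65 TPM with the nanocapsule. Mcm7 was at 20.1, 14.6 and 23.04 TPM with PBS, 17.4, 14.9 and 24.8 TPM with anti-PD1 and 13.7, 13.7 and 15.6 TPM with the nanocapsule. For Mcm2, Mcm5, Mcm6 and Mcm7 the nanocapsule lungs overlapped both other groups, in which PBS 2 and anti-PD1 2 were the lowest lungs.

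Among the other replication genes, Pcna, the sliding clamp that holds the polymerase on DNA, was the most abundant, at 85.4, 71.8 and 94.9 TPM with PBS, 78.97, 82 and 114 TPM with anti-PD1 and 67.7, 68.5 and 81.4 TPM with the nanocapsule. Uhrf1, which carries DNA methylation over to the new strand, was at 9.91, 4.36 and 9.24 TPM with PBS, 6.18, 4.86 and 13.9 TPM with anti-PD1 and 5.65, 7.05 and 5.11 TPM with the nanocapsule. The values of both overlapped between all groups. Thymidylate synthase, encoded by Tyms, was at 5.71, 5.26 and 8.61 TPM with PBS, 6.92, 3.53 and 12.4 TPM with anti-PD1 and 4.51, 7.01 and 8.08 TPM with the nanocapsule. The subunits of ribonucleotide reductase, which makes deoxynucleotides, were at 11.4, 6.52 and 11.01 TPM with PBS, 9, 7.99 and 13.1 TPM with anti-PD1 and 6.58, 7.72 and 8.23 TPM with the nanocapsule for the large subunit Rrm1. The small subunit Rrm2 was at 13.6, 8.197 and 14.6 TPM with PBS, 9.07, 7.77 and 20.4 TPM with anti-PD1 and 9.77, 11.4 and 10.9 TPM with the nanocapsule. All 3 nucleotide genes were highest in anti-PD1 3. Cdc6, the loader of the helicase, was near the detection limit set here, at 2.12, 2.32 and 1.78 TPM with PBS, 1.31, 0.924 and 2.09 TPM with anti-PD1 and 1.098, 1.54 and 1.997 TPM with the nanocapsule. Cdc45 lay between 3.34 and 7.16 TPM and Gins2, a GINS subunit, between 2.72 and 7.83 TPM, with overlap between all groups.

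Among mitosis genes, Mki67, the gene of the proliferation marker Ki-67, was at 8.89, 6.38 and 8.28 TPM with PBS, 5.62, 5.02 and 9.33 TPM with anti-PD1 and 5.104, 5.41 and 6.7 TPM with the nanocapsule. Top2a, the topoisomerase that untangles sister chromatids, was at 20.5, 11.1 and 18.3 TPM with PBS, 10.98, 9.22 and 27.6 TPM with anti-PD1 and 12.3, 12.3 and 12.1 TPM with the nanocapsule. In both genes anti-PD1 3 was the highest lung, and the other anti-PD1 lungs lay below every PBS lung. Cdk1, the kinase of mitotic entry, was at 15.6, 7.46 and 18.9 TPM with PBS, 10.04, 7.84 and 18.5 TPM with anti-PD1 and 10.3, 9.71 and 13.9 TPM with the nanocapsule. Of its partner cyclins, Ccnb1 was at 5.18, 2.601 and 4.88 TPM with PBS, 2.896, 4.38 and 8.198 TPM with anti-PD1 and 5.95, 3.08 and 3.69 TPM with the nanocapsule. Ccnb2 was at 13.8, 10.98 and 17.4 TPM with PBS, 8.96, 9.62 and 15.4 TPM with anti-PD1 and 13.04, 15.4 and 13.6 TPM with the nanocapsule. Cyclin A2, Ccna2, lay between 3.88 and 10.2 TPM. PBS 3 was the highest of the 9 lungs for Cdk1 and Ccnb2, and anti-PD1 3 for Ccnb1 and Ccna2.

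Of the chromosomal passenger complex, which corrects chromosome attachment, Aurkb was at 8.45, 4.93 and 7.65 TPM with PBS, 5.57, 5.41 and 8.55 TPM with anti-PD1 and 7.71, 6.22 and 6.46 TPM with the nanocapsule. Birc5, the survivin subunit, was at 17.2, 8.29 and 18.9 TPM with PBS, 10.1, 10.4 and 24.1 TPM with anti-PD1 and 11.99, 17.4 and 10.9 TPM with the nanocapsule. Aurka, the kinase of the spindle poles, was at 6.95, 6.73 and 5.81 TPM with PBS, 3.42, 3.87 and 7.02 TPM with anti-PD1 and 6.08, 5.66 and 6.77 TPM with the nanocapsule, with anti-PD1 1 and 2 below all 7 other lungs. Plk1, the Polo-like kinase, lay between 3.02 and 7.44 TPM. Ube2c, the ubiquitin-conjugating enzyme of the anaphase promoting complex, was at 26.2, 17.5 and 28.4 TPM with PBS, 14.3, 14.9 and 34.5 TPM with anti-PD1 and 21.98, 24.7 and 20.3 TPM with the nanocapsule. Its activator Cdc20 lay between 6.53 and 14.6 TPM, and the checkpoint genes Bub1 and Bub1b between 1.07 and 2.29 TPM and between 3.62 and 8.52 TPM. These genes overlapped between the groups.

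Motors and spindle proteins were expressed at low levels, apart from Kif23 and Stmn1. Kif11, the motor that separates the poles, lay between 1.88 and 4.61 TPM, Kif20a, a kinesin of cytokinesis, between 2.31 and 5.204 TPM, and the kinetochore motor Cenpe between 0.851 and 1.95 TPM. Of the spindle proteins, Tpx2, an activator of Aurora A, lay between 3.53 and 6.94 TPM, Nusap1 between 2.69 and 7.22 TPM and Prc1, the bundler of midzone microtubules, between 3.33 and 8.54 TPM. Cenpf, a kinetochore protein and the gene not tested, lay between 0.438 and 1.27 TPM. Kif23, another kinesin of cytokinesis, was at 17.5, 16.8 and 15.4 TPM with PBS, 12.4, 15.3 and 13.8 TPM with anti-PD1 and 11.4, 10.8 and 16.7 TPM with the nanocapsule, with each anti-PD1 value under each PBS value. Stmn1, which destabilises microtubules, was at 58.6, 32.4 and 67.4 TPM with PBS, 42.6, 52.1 and 129 TPM with anti-PD1 and 44.9, 53.1 and 41.8 TPM with the nanocapsule. Its level in anti-PD1 3 stood far above that of the other 8 lungs.

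The transcription factors of the mitotic programme were at low levels. Mybl2, the gene of B-Myb, was at 2.35, 1.51 and 2.61 TPM with PBS, 2.47, 2.23 and 3.81 TPM with anti-PD1 and 1.995, 1.71 and 1.73 TPM with the nanocapsule, with all nanocapsule lungs below all anti-PD1 lungs. Foxm1 was at 4.14, 2.95 and 3.21 TPM with PBS, 1.805, 2.01 and 5.64 TPM with anti-PD1 and 2.21, 2.099 and 3.07 TPM with the nanocapsule. Hmgb2, an abundant protein that bends DNA in chromatin, was at 209, 263 and 222 TPM with PBS, 197, 225 and 205 TPM with anti-PD1 and 258, 279 and 247 TPM with the nanocapsule. It had the highest mean of the 40 genes, 234 TPM over the 9 lungs, and its lungs were ordered unlike those of most other genes: PBS 2 was the highest PBS lung, and every nanocapsule lung lay above every anti-PD1 lung.

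The first comparison asked whether these genes differed between anti-PD1 and PBS lungs. None of the 39 tested genes was called by limma at an adjusted p under 0.05, where 0.00755% of all tested genes were called, and none had an unadjusted p under 0.05, where 16.5% of all tested genes did (8.48% higher and 8.06% lower). Means were higher in the anti-PD1 lungs for 13 of the 39, 7 of S phase and 6 of mitosis, against 56.9% of all tested genes. The median log2 difference was 0.00 for S phase (-0.00056) and -0.11 for mitosis, against 0.04 for all tested genes. Log2 differences are on the log2(TPM + 1) scale, which understates the change of genes near 1 TPM. By value, the log2 difference was 0.43 (SE 0.26, adjusted p = 0.432 by limma) for Mcm3 and, for Gins2, 0.36 (SE 0.34, adjusted p = 0.625 by limma). Aurka had one of -0.43 (SE 0.21, adjusted p = 0.34 by limma), Ccnb2 of -0.30 (SE 0.21, adjusted p = 0.488 by limma) and Cdc6 of -0.36 (SE 0.22, adjusted p = 0.437 by limma). Kif23, at -0.24 (SE 0.16, adjusted p = 0.468 by limma), was the 1 gene of 39 with groups that did not overlap, and it was lower in the anti-PD1 lungs, against 13.4% of all tested genes in that direction. The other log2 differences printed were those of Mybl2 at 0.27 (SE 0.21, adjusted p = 0.529 by limma), Hmgb2 at -0.14 (SE 0.10, adjusted p = 0.526 by limma), Pcna at 0.11 (SE 0.16, adjusted p = 0.753 by limma), Cdc45 at -0.15 (SE 0.22, adjusted p = 0.78 by limma), Mki67 at -0.24 (SE 0.21, adjusted p = 0.605 by limma) and Top2a at -0.18 (SE 0.35, adjusted p = 0.838 by limma).

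The direction in this comparison changed with single lungs left out. Without anti-PD1 3, only 3 of the 39 genes had a higher mean in the anti-PD1 lungs, the median differences were -0.26 for S phase and -0.41 for mitosis, and 7 genes had an unadjusted p under 0.05, against 9.34% of all genes tested in that fit. Without PBS 2 the count was 5 and the medians were -0.19 and -0.29. Without anti-PD1 1, anti-PD1 2, PBS 1 or PBS 3, the count was 24, 29, 22 and 25, and the S phase and mitosis medians lay between 0.04 and 0.19 and between -0.01 and 0.04. None of these fits called any of the 39 genes. Single values moved as well: without anti-PD1 3 the difference was 0.15 for Mcm3, 0.10 for Mybl2, -0.69 for Aurka, -0.48 for Mki67 and -0.63 for Top2a, and Gins2 was at 0.11 without PBS 2 and 0.69 without PBS 1.

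The second comparison set the nanocapsule lungs against the PBS lungs. Again limma called none of the 39 genes, with 0.00755% of all tested genes called, and 1 gene, Mcm4, had an unadjusted p under 0.05, with a lower mean, against 10.1% of all tested genes (1.22% higher and 8.92% lower). All 6 helicase genes had lower means in the nanocapsule lungs, with a median log2 difference of -0.36, against -0.11 for all tested genes. Of the 14 S phase genes 13 had lower means, with a median of -0.29, and of the 25 mitosis genes 21, with a median of -0.12, where 71.2% of all tested genes had lower means. Mcm4, at a difference of -0.36 (SE 0.13, adjusted p = 0.43 by limma), was the 1 gene of the 39 with groups that did not overlap, lower in the nanocapsule lungs as were 11.9% of all tested genes, while 2.4% did not overlap and were higher. The values were -0.40 (SE 0.23, adjusted p = 0.568 by limma) for Mcm2, -0.36 (SE 0.23, adjusted p = 0.605 by limma) for Mcm5, -0.36 (SE 0.23, adjusted p = 0.611 by limma) for Mcm6 and -0.38 (SE 0.20, adjusted p = 0.535 by limma) for Mcm7. Among mitosis genes they were -0.39 (SE 0.21, adjusted p = 0.557 by limma) for Mki67, -0.38 (SE 0.35, adjusted p = 0.712 by limma) for Top2a, -0.35 (SE 0.16, adjusted p = 0.491 by limma) for Kif23, -0.36 (SE 0.30, adjusted p = 0.691 by limma) for Foxm1 and -0.31 (SE 0.24, adjusted p = 0.666 by limma) for Tpx2. Hmgb2 stood on the other side, at 0.18 (SE 0.10, adjusted p = 0.568 by limma).

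The shift of all genes bears on these counts. With median-of-ratios scaling, which brought the median of all genes to 0.00 (0.0014), 15 of the 39 genes had higher and 24 lower means in the nanocapsule lungs, in place of 5 and 34, and with quantile normalization 16 and 23. The mitosis median then was 0.00 (0.0017) and 0.01 and the S phase median -0.18 and -0.14, and all 6 helicase genes still had lower means under both. PBS 2 was the lung that most reduced the difference: without it, 1 of 39 means was higher, 7 genes had an unadjusted p under 0.05, 5 of them from the helicase, against 15.5% of all genes tested in that fit, and the medians were -0.41 for S phase and -0.35 for mitosis, with all genes at -0.15. Without PBS 1, PBS 3 or nanocapsule 3, 12, 14 and 8 means were higher, and 1 helicase gene was among the 12 without PBS 1. Without PBS 1 or PBS 3 the S phase median was -0.18 and -0.17 and the mitosis median -0.02 and -0.02.

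The third comparison set the nanocapsule against the free antibody. Limma called none of the 39 genes, where 0.106% of all tested genes were called, and 4 had an unadjusted p under 0.05, against 27.7% of all tested genes (6.69% higher and 21% lower). These were Mcm2, Mcm3 and Mcm4, with lower means in the nanocapsule lungs, and Hmgb2, with a higher one. The log2 difference was -0.53 (SE 0.23, adjusted p = 0.17 by limma) for Mcm2, -0.60 (SE 0.26, adjusted p = 0.173 by limma) for Mcm3, -0.30 (SE 0.13, adjusted p = 0.18 by limma) for Mcm4, -0.36 (SE 0.20, adjusted p = 0.256 by limma) for Mcm7 and -0.32 (SE 0.16, adjusted p = 0.207 by limma) for Pcna. For Hmgb2 it was 0.32 (SE 0.10, adjusted p = 0.106 by limma). Groups did not overlap for Hmgb2, higher in the nanocapsule lungs as were 8.73% of all tested genes, and for Mcm3, Mcm4 and Mybl2, lower as were 24.6% of all tested genes. Mybl2 had a difference of -0.43 (SE 0.21, adjusted p = 0.207 by limma), Stmn1 of -0.50 (SE 0.38, adjusted p = 0.393 by limma), Mki67 of -0.15 (SE 0.21, adjusted p = 0.653 by limma) and Top2a of -0.20 (SE 0.35, adjusted p = 0.714 by limma). Aurka and Ccnb2 had higher means in the nanocapsule lungs, at 0.36 (SE 0.21, adjusted p = 0.28 by limma) and 0.32 (SE 0.21, adjusted p = 0.327 by limma). Anti-PD1 3 bore on several of these values: without it the difference was -0.023 for Stmn1, -0.30 for Mcm2, -0.32 for Mcm3, -0.19 for Mcm4, -0.16 for Mcm7, -0.15 for Pcna, -0.25 for Mybl2, 0.63 for Aurka and 0.54 for Ccnb2. Stmn1 was at -0.81 without anti-PD1 1, and Hmgb2 lay between 0.27 and 0.37 with any 1 lung left out.

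**Figure D3:**
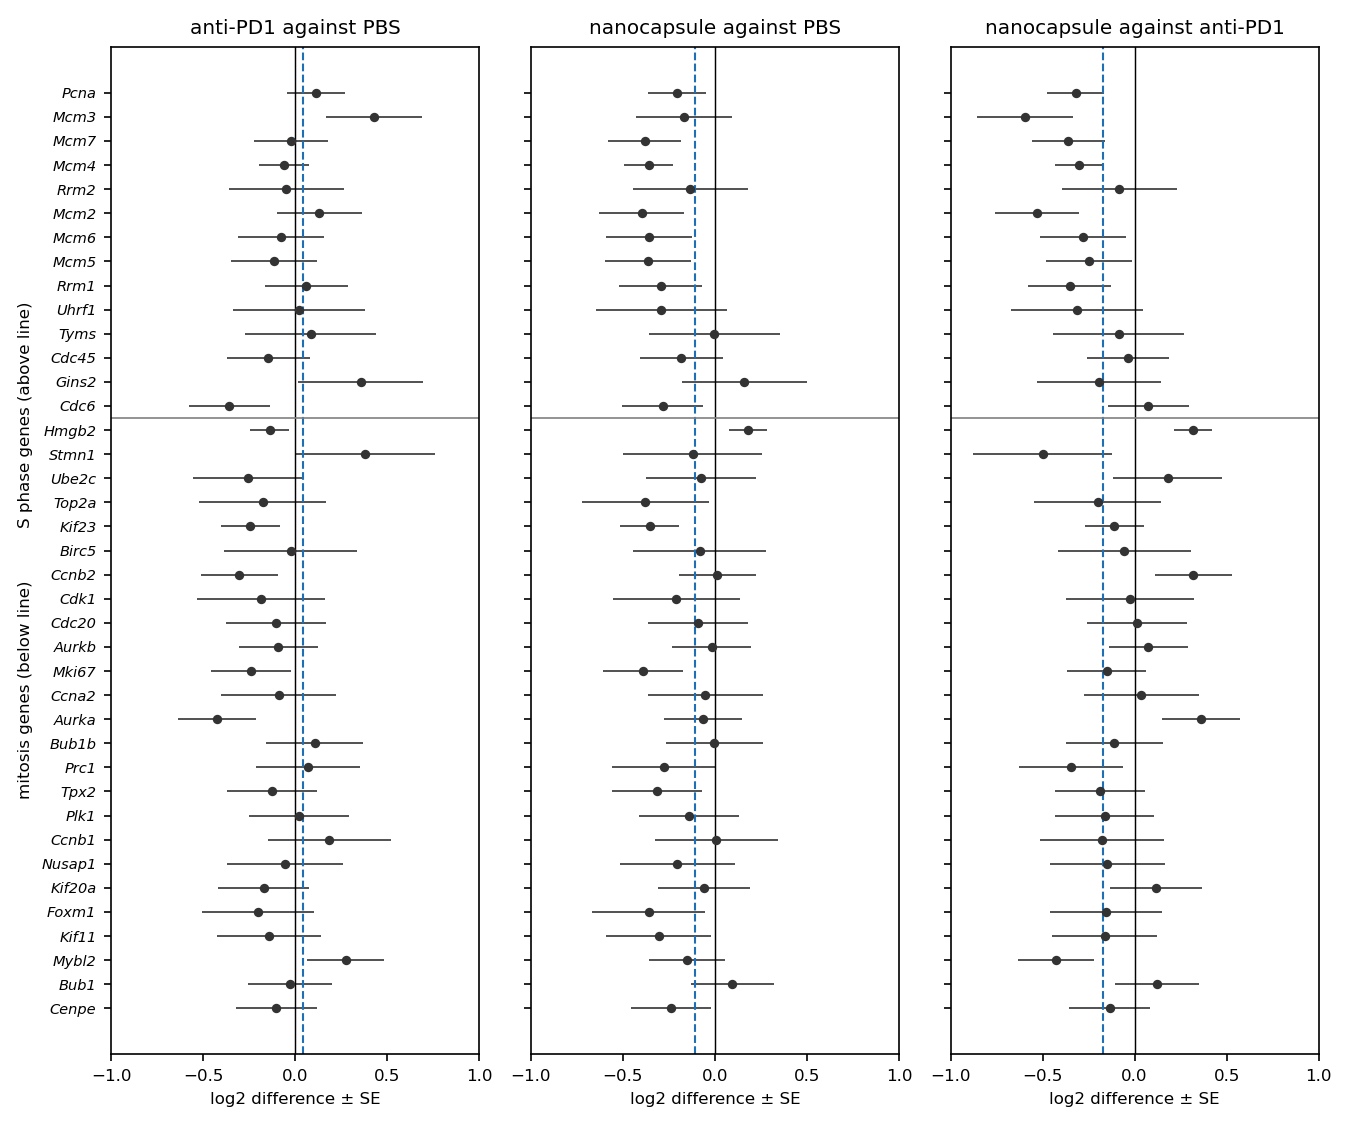
Log2 difference in log2(TPM + 1), with the SE of the limma fit as a bar, for the 39 tested genes in the 3 comparisons; the solid line is at 0 and the dashed line at the median of all tested genes, 0.04, -0.11 and -0.17 from left to right. The points lie within 0.60 of 0 in every panel, and with the values as deposited the helicase genes lie left of 0 in the middle and right panels.

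Over the list, 10 of the 39 genes had higher means in the nanocapsule than in the anti-PD1 lungs and 29 lower ones, against 29.2% and 70.8% of all tested genes. The S phase median was -0.29 and the mitosis median -0.11, with all tested genes at -0.17. The direction for mitosis genes changed with the scaling: 16 of the 25 means were higher with median-of-ratios scaling and 21 with quantile normalization, and the mitosis median was 0.06 and 0.13. Over all 39 genes the counts were 20 and 26. It also changed without anti-PD1 3, with 21 of the 25 mitosis means and 27 of all 39 means higher, a mitosis median of 0.24 and an S phase median of -0.03. Without anti-PD1 1 and without anti-PD1 2, 5 means were higher in each fit. The S phase median was -0.38 without anti-PD1 1 and -0.47 without anti-PD1 2, and the mitosis median -0.24 in both. The 6 helicase genes had lower means in the nanocapsule lungs in each of these fits, with a median of -0.33 as deposited, -0.14 with median-of-ratios scaling, -0.16 with quantile normalization and -0.18 without anti-PD1 3. With these 3 changes none of the 6 had an unadjusted p under 0.05. The same held with no intensity trend in the fit and without anti-PD1 1, nanocapsule 1, nanocapsule 2 or nanocapsule 3. The comparisons with PBS share the PBS lungs, and those with anti-PD1 share the anti-PD1 lungs, so their differences are not independent.

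Further genes of the cell cycle were taken from lists of 49 replication genes, 61 mitosis genes, 19 genes of G1 and 18 inhibitors. Limma called none of them in any comparison. Against PBS, the anti-PD1 lungs had higher means in 30 and lower means in 14 of 44 tested replication genes (median 0.07) and in 19 and 37 of 56 tested mitosis genes (median -0.08). Of all tested genes, 56.9% had higher means there (median 0.04). The nanocapsule lungs had lower means than PBS in 35 of the 44 (median -0.17) and 45 of the 56 (median -0.17), against 71.2% of all tested genes (median -0.11). Against anti-PD1, 37 of the 44 replication genes had lower means in the nanocapsule lungs (median -0.26) and 43 of the 56 mitosis genes (median -0.12), against 70.8% of all tested genes (median -0.17). In that comparison 7 replication genes and 1 mitosis gene had an unadjusted p under 0.05, all lower, against 21% of all tested genes in that direction. Groups did not overlap for 17 of the 44 replication genes and 2 of the 56 mitosis genes, all lower, against 24.6% of all tested genes.

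Pold1, the catalytic subunit of DNA polymerase delta, was at 20.4, 16.2 and 20.4 TPM with PBS, 18.8, 17.4 and 24.05 TPM with anti-PD1 and 13.95, 10.02 and 9.55 TPM with the nanocapsule, so that the nanocapsule lungs lay below the 6 others. Its difference was -0.73 (SE 0.17, adjusted p = 0.338 by limma) from PBS and -0.80 (SE 0.17, adjusted p = 0.0628 by limma) from anti-PD1. Other replication genes with small p between nanocapsule and anti-PD1 were Cdc7, which fires origins, at -0.72 (SE 0.19, adjusted p = 0.0799 by limma), and Rpa1, of the single-strand binding protein, at -0.48 (SE 0.17, adjusted p = 0.125 by limma). Between nanocapsule and PBS they were Slbp, the binder of histone mRNA, at -0.23 (SE 0.09, adjusted p = 0.446 by limma), and Dbf4, the partner of Cdc7, at -0.41 (SE 0.17, adjusted p = 0.461 by limma). Between anti-PD1 and PBS, Rfc3, of the clamp loader, had a difference of 0.40 (SE 0.15, adjusted p = 0.244 by limma), Rpa3 of 0.33 (SE 0.14, adjusted p = 0.277 by limma) and Dctpp1, a nucleotide hydrolase, of 0.30 (SE 0.14, adjusted p = 0.305 by limma).

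Among G1 genes, Ccnd2, cyclin D2, was at 34.7, 23.4 and 33.3 TPM with PBS, 33.2, 28.9 and 34.8 TPM with anti-PD1 and 21.3, 17.02 and 22.7 TPM with the nanocapsule. Its kinase partner Cdk4 was at 48.3, 38.3 and 65.4 TPM with PBS, 47.03, 47.97 and 58.98 TPM with anti-PD1 and 30.97, 35.9 and 30.7 TPM with the nanocapsule. In both, the nanocapsule lungs lay below the 6 others. Ccnd2 differed by -0.55 (SE 0.16, adjusted p = 0.365 by limma) from PBS and -0.65 (SE 0.16, adjusted p = 0.0745 by limma) from anti-PD1, and Cdk4 by -0.60 (SE 0.18, adjusted p = 0.365 by limma) and -0.64 (SE 0.18, adjusted p = 0.0852 by limma). The calls on these genes moved with the fit: Pold1, Ccnd2 and Cdk4 passed the threshold between nanocapsule and anti-PD1 when only those 2 groups were fitted (adjusted p = 0.0488, 0.0433 and 0.0378 by limma) and without PBS 2 (0.0309, 0.0268 and 0.0342). E2f3 was at 0.60 (SE 0.22, adjusted p = 0.434 by limma) between nanocapsule and PBS, and Tfdp1, the dimerization partner of E2F factors, at 0.39 (SE 0.11, adjusted p = 0.0896 by limma) between nanocapsule and anti-PD1 and -0.25 (SE 0.11, adjusted p = 0.296 by limma) between anti-PD1 and PBS. Cdk6 and Ccnd1, cyclin D1, had differences of 0.69 (SE 0.20, adjusted p = 0.211 by limma) and 0.77 (SE 0.27, adjusted p = 0.235 by limma) between anti-PD1 and PBS.

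Among inhibitors, Cdkn1a, the gene of p21, was at 121, 98.9 and 83.3 TPM with PBS, 104, 87.9 and 86.9 TPM with anti-PD1 and 65.6, 60.3 and 81.4 TPM with the nanocapsule. It differed by -0.54 (SE 0.15, adjusted p = 0.365 by limma) between nanocapsule and PBS and -0.43 (SE 0.15, adjusted p = 0.124 by limma) between nanocapsule and anti-PD1. Cdkn1b, the gene of p27, was at -0.30 (SE 0.11, adjusted p = 0.251 by limma) and -0.27 (SE 0.11, adjusted p = 0.461 by limma) against PBS for anti-PD1 and the nanocapsule. Cdkn1c, of the same family, was at 0.68 (SE 0.23, adjusted p = 0.228 by limma) between anti-PD1 and PBS and -0.64 (SE 0.23, adjusted p = 0.125 by limma) between nanocapsule and anti-PD1. Ccng2 was at -0.32 (SE 0.13, adjusted p = 0.262 by limma) in the first comparison, Btg2 at -0.26 (SE 0.12, adjusted p = 0.491 by limma) in the second and Cdkn2d at 0.44 (SE 0.14, adjusted p = 0.105 by limma) in the third. Of the further mitosis genes, Lmnb1, of the nuclear lamina, was at -0.40 (SE 0.11, adjusted p = 0.211 by limma) and -0.36 (SE 0.11, adjusted p = 0.365 by limma) against PBS for anti-PD1 and the nanocapsule. Hjurp, which deposits centromeric histone, was at -0.39 (SE 0.15, adjusted p = 0.248 by limma) and Cdc25b, a phosphatase that activates Cdk1, at -0.29 (SE 0.12, adjusted p = 0.276 by limma) between anti-PD1 and PBS. Ncapd2, a condensin subunit, was at -0.65 (SE 0.23, adjusted p = 0.418 by limma) and Sgol1, the cohesin protector, at -0.88 (SE 0.34, adjusted p = 0.446 by limma) between nanocapsule and PBS. Between nanocapsule and anti-PD1, Bub3 was at -0.26 (SE 0.10, adjusted p = 0.153 by limma), Ncapd2 at -0.43 (SE 0.23, adjusted p = 0.237 by limma) and Cdc25b at 0.22 (SE 0.12, adjusted p = 0.254 by limma).

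Markers of other cells that can divide moved between the same libraries. Of 11 genes of immature thymocytes, 11 were in the table and 9 were tested, and their summed level ranged from 73.1 to 172 TPM with PBS, from 62.1 to 319 TPM with anti-PD1 and from 64.2 to 93.5 TPM with the nanocapsule. Rag1, of the V(D)J recombinase, was at 0.338, 0.46 and 8.62 TPM with PBS, 3.46, 0.932 and 28.3 TPM with anti-PD1 and 0.907, 4.72 and 0.911 TPM with the nanocapsule, and Dntt, the terminal transferase of the same process, at 0.536, 0.613 and 14.1 TPM with PBS, 4.49, 1.17 and 46.8 TPM with anti-PD1 and 0.767, 12.1 and 1.04 TPM with the nanocapsule. Their levels were highest in anti-PD1 3, the library highest in the cell cycle genes. PBS 1 and PBS 3 had mitosis indices of 3.35 and 3.34, with Rag1 at 0.338 and 8.62 TPM and Dntt at 0.536 and 14.1 TPM. Nanocapsule 2, with Rag1 and Dntt at 4.72 and 12.1 TPM, had a mitosis index of 2.99, close to the 3.01 and 3.06 of nanocapsule 1 and 3. The part of these markers in the differences was not tested. Leaving out the library highest in both in each group (PBS 3, anti-PD1 3 and nanocapsule 2), an alternative chosen after the data were seen, gave mitosis medians of -0.26, -0.02 and 0.26 in the 3 comparisons, in the order above, and S phase medians of -0.10, -0.21 and -0.03, with no gene of the 39 called. Leaving out anti-PD1 3 alone gave 0.24 and -0.03 in the third comparison. That lung was the highest in 34 of the 39 genes, so this alternative cannot tell Rag1 and Dntt apart from that 1 lung.

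**Figure D4:**
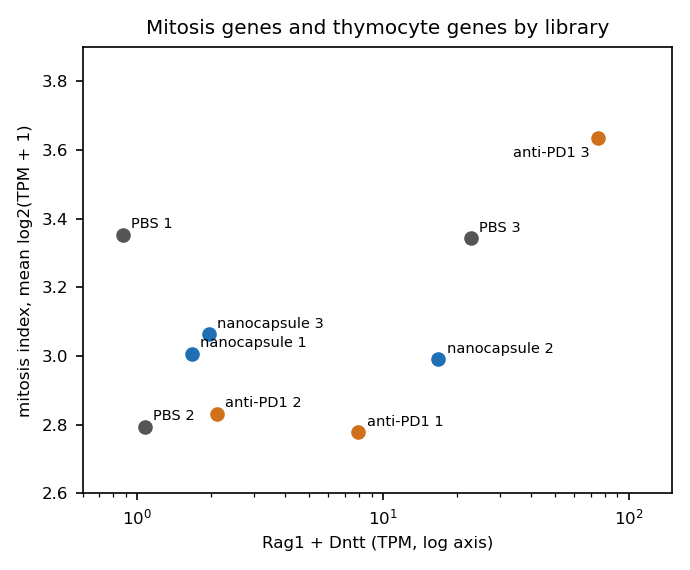
Mitosis index (vertical axis, mean log2(TPM + 1) of 25 genes) against the summed level of Rag1 and Dntt (horizontal log axis, TPM) in the 9 lungs, coloured by group. Anti-PD1 3 is highest on both axes, and PBS 1, at an index of 3.35, has the lowest Rag1 and Dntt.

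Neutrophil precursors divide as well, and by group means their genes were ordered differently from the cell cycle genes. The summed level of 11 precursor genes was 5301 to 8082 TPM with PBS, 3604 to 4684 TPM with anti-PD1 and 7647 to 7930 TPM with the nanocapsule. Elane and Mpo reached at most 16.5 and 24.8 TPM, so nearly all of the sum came from other genes of the list, which also holds Camp, Ngp and Ltf. The sum is therefore no measure of the number of dividing precursors. Between nanocapsule and anti-PD1, 10 of the 11 had higher means, all 10 at an unadjusted p under 0.05, against 6.69% of all tested genes. Limma called 2 of the 11 there (smallest adjusted p = 0.0393), against 0.106% of all tested genes. The 1 other precursor gene had a lower mean, with a log2 difference of -0.78. Elane and Mpo, of the primary granules, were lowest in the 3 anti-PD1 lungs, at 4.72 to 5.696 TPM and 8.17 to 9.62 TPM. Anti-PD1 3, highest in both indices, was in the group lowest in Elane and Mpo, but was the highest lung of that group in both genes. PBS 2, lowest of its group in both indices, had the highest precursor sum of the PBS lungs, whereas Elane was highest in PBS 3. Nanocapsule 3, highest of its group in both indices, was also the highest of it in Mpo, at 24.8 TPM, but not in Elane. Their part in the levels was not tested.

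Lymphocyte and lung cell markers moved between groups too. The sum of 12 T cell genes was 299 to 602 TPM with PBS, 278 to 774 TPM with anti-PD1 and 244 to 273 TPM with the nanocapsule, and that of 10 B cell genes 360 to 680 TPM, 371 to 627 TPM and 217 to 300 TPM. Both lists were lowest in the nanocapsule lungs, as the helicase genes were by their means. Endothelial genes summed to 43.2 to 118 TPM, 154 to 300 TPM and 44.98 to 106 TPM, and 9 erythroid genes in the table, 4 of them tested, to 1932 to 7446 TPM, 7055 to 14703 TPM and 2176 to 11811 TPM, with anti-PD1 3 the highest lung for both lists. Alveolar macrophage genes summed to 1117 to 1807 TPM, 2121 to 2497 TPM and 1060 to 1790 TPM. The 8 genes of alveolar type 2 cells summed to 451 to 1281 TPM, 1597 to 4011 TPM and 781 to 4148 TPM, with nanocapsule 1 the highest lung. All 8 had higher means with anti-PD1 than with PBS (median log2 difference 1.19, none called by limma, 6 at an unadjusted p under 0.05). Of all tested genes, 56.9% had higher means there, and 8.48% were higher at that p. The 10 endothelial genes were also all higher (median 1.32, 10 at that p), as were 10 tested alveolar macrophage genes (median 0.59, 5 at that p). Of the 10 B cell genes, 7 had lower means there. None of these lists had a call in that comparison. Sftpc, which defines these cells, was present in every library, between 343 and 3410 TPM. The part of these cells in the differences was not tested. A list of 8 keratin and other epithelial genes (Krt14, Krt5, Krt17, Krt6a, Krt6b, Krt15, Trp63 and Cldn4) summed to 0.49 to 3.58 TPM. None of them passed the filter, and Krt6a and Krt6b were at 0 in all lungs. The presence of tumour cells in the lungs was not tested. Libraries had 12194 to 13407 genes at 1 TPM or more.

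The cell cycle genes varied together over the libraries. The median Pearson correlation over the 9 lungs was 0.77 between pairs of S phase genes, 0.76 between pairs of mitosis genes and 0.69 between genes of both kinds, and 0.18 between pairs of all tested genes. With each group centred on its mean these values were 0.80, 0.85, 0.78 and 0.17. All pairs share the same 9 libraries, and the values are a description. Of the 39 genes, 36 had a correlation above 0.5 with the mean of the other genes. The lowest were Cdc6 at 0.48, Kif23 at 0.17 and Hmgb2 at -0.51, and the highest were Nusap1 and Top2a, both at 0.98.

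The 10 genes outside the set whose levels followed its mean most closely over the 9 lungs had correlations of 0.93 to 0.98. They were Kpna2, a nuclear import factor, Kif22, a chromosome motor, Ccnf, cyclin F, Gtse1, a G2 and S phase protein, Asf1b and Chaf1a, chaperones of new histones, Ncapg2, a condensin subunit, H2afx, the histone that marks DNA breaks, Lig1, the ligase of replication, and Ccdc62. Of these, 6 are in the lists of further replication or mitosis genes. In H2afx, the most abundant of the 10, anti-PD1 3 was the highest lung at 75.5 TPM and PBS 2 the lowest at 35.3 TPM.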

How the data were processed

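Poly(A) RNA of 9 lungs, 3 per group, was sequenced. The authors deposited 1 gene-level table of TPM, named for salmon, in which each library has the same sum. The submitters' processing notes list GRCm38 and DESeq2 with no version or role, and filters are not stated in the labels. TPM keep no read depth, so depth was unknown and no count model was run.

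The 13248 genes reaching 1 TPM in 3 or more samples entered 1 limma fit (version 3.58.1, R 4.3.3) of log2(TPM + 1) over all 9 samples, with an intensity trend and 6 residual degrees of freedom. Two-sided p-values were Benjamini-Hochberg adjusted over all genes tested, and an adjusted p under 0.05 made a call. The code was tested on simulated data. The genes of the set, the lists and the tests were chosen with earlier results of these data known. Log2 differences are printed, per comparison, for the 5 S phase and 5 mitosis genes of smallest p, for Mki67 and Top2a, and for the 3 genes of smallest p of each further list; Rag1, Dntt, Elane and Mpo were named in the rule, and other markers, and H2afx, were picked after their values were seen. The genes most alike to the set are the 10 of highest Pearson correlation with its mean. Promoters came from RefSeq. The closing section gives the alternatives.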

Additional observations from a re-analysis of the deposited data

How the results depend on the processing

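Each result was recomputed under 11 other settings, without each of the 9 libraries, and, as 1 alternative chosen after the data were seen, without the library highest in Rag1 and Dntt of each group. No alternative called a gene of the set for anti-PD1 against PBS or nanocapsule against PBS. For nanocapsule against anti-PD1, 1 was called with the replicate number as a block, Hmgb2 (limma adjusted p = 0.0468). The numbers are not known to pair the samples: deviations of same-numbered libraries correlated at 0.06 to 0.28 between anti-PD1 and PBS, where each library correlated best with its own number, and at -0.14 to 0.14 and -0.18 to 0.04 in the other comparisons. Calls over all genes for nanocapsule against anti-PD1, 14 as reported, were 1095 with that block, 476 with only those 2 groups, 197 with a mean of at least 5 TPM, 133 renormalized without S100a8, S100a9, mitochondrial, haemoglobin and immunoglobulin genes, 79 with a robust trend, 75 with quantile normalization, 22 with median-of-ratios scaling, 3 with no filter, 2 with no trend and 1 without the libraries highest in Rag1 and Dntt. For anti-PD1 against PBS, with 1 call, there were 0 at a pseudocount of 0.1, with median-of-ratios, quantile and renormalized values and with no trend, and there were 2 at a pseudocount of 5. For nanocapsule against PBS, with 1 call, there were 5 with the block, 4 with median-of-ratios scaling and with a robust trend, 3 with the stricter filter and renormalized, 2 at a pseudocount of 0.1 and with no trend, and 0 with no filter, with quantile normalization and without the libraries highest in Rag1 and Dntt. With single libraries left out, calls over all genes lay between 0 and 3, 0 and 4, and 0 and 960 in the 3 comparisons, and genes of the set with a higher mean between 3 and 29, 1 and 14, and 5 and 27. Those counts, 13, 5 and 10 as reported, were 8, 16 and 26 with quantile normalization, 6, 11 and 28 without the libraries highest in Rag1 and Dntt, and, for the nanocapsule against PBS, 15 with median-of-ratios scaling, 8 renormalized (of 40 genes tested, Cenpf included) and 3 with the stricter filter (of 27 tested), and 20 for the nanocapsule against anti-PD1 with median-of-ratios scaling. In that comparison the mitosis median lay between -0.24 and 0.24 with single libraries left out and was 0.26 without the libraries highest in Rag1 and Dntt, where Mki67 was at 0.12 and Top2a at 0.25. Mki67 was at 0.021 with median-of-ratios scaling and 0.10 with quantile normalization. With single libraries left out, Mki67 lay between -0.30 and 0.086 and Top2a between -0.49 and 0.26 there, and in anti-PD1 against PBS Top2a lay between -0.63 and 0.11, Cdc45 between -0.35 and 0.10 and Pcna between -0.053 and 0.21. Some of these fits held fewer libraries or genes and others held the same ones, and the cause of the changes was not tested. Beyond the set, with the block Pold1, Cdc7, Rpa1, Ccnd2 and Cdkn2d passed the threshold in nanocapsule against anti-PD1, as did Pold1 with the stricter filter (limma adjusted p = 0.046) and Rpa1 and Cdkn2d without PBS 2. With the stricter filter, Cdc6, Mybl2, Foxm1, Tpx2, Cdc7, Cdkn1c, E2f3 and Sgol1 had no value, nor had Sgol1 without PBS 1, PBS 3 or anti-PD1 3, or without the libraries highest in Rag1 and Dntt. Depth is unknown, so genes near 1 TPM, such as Bub1, Cdc6, Cenpe and Cenpf, have an error that these data do not give.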
